A study of Mus musculus with 3 samples.

Results

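In a section of an E11.5 mouse embryo, 78 of 1561 spots formed the top 5% by the summed UMIs (unique molecular identifiers, which count captured RNA molecules) of Gsc, Pitx1 and Barx1 over all UMIs of the spot. Over the whole series, 3935 spots were used. These 78 spots, called members here, were compared with the other 1483 spots of the same section. The name under which they were set apart, arch mesenchyme, was only partly borne out by other genes. Dlx genes, which pattern the pharyngeal arches, had UMIs in 52 of the 78 members. A set of 13 members carried hindlimb genes, and a set of 10 carried genes of gut mesenchyme. The members are therefore described by the rule and by the genes they hold.

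The study profiled mouse embryonic axial skeleton by Visium, in which barcoded spots on a slide capture the RNA of a frozen section laid over them. Sections came from E11.5, E12.5 and E13.5 (days of embryonic development), with 1 section per stage and no replicate. A spot is 55 µm wide and its centre lies 100 µm from the next, and it can hold several cells of different types. No treatment, genotype or strain is given in the labels, which state only bone and axial skeleton for all 3 sections and the stage in the sample titles. The E11.5 section also held spots led by heart, gut and facial genes, so the tissue named in the labels covers only part of it. With 1 section per stage no test between spots or stages was possible. Intervals are exact 95% intervals that cover counting error only, and more cells of a kind in a spot cannot be told apart from more RNA per cell.

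The pharyngeal arches are paired swellings below the embryonic head, and neural crest mesenchyme in the first of them forms the jaws, the teeth and parts of the ear. Gsc, Pitx1 and Barx1 encode homeodomain transcription factors that are active there. Gsc acts in lower jaw and ear development, Pitx1 in the lower jaw and also in the hindlimb, and Barx1 in molar tooth mesenchyme and also in stomach mesenchyme. Dlx5 and Dlx6 mark the lower part of an arch, downstream of endothelin signalling, while Dlx1 and Dlx2 are active over most of the arch.

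Upstream sequences are shown for 3 genes around which the results turn: Gsc, one of the genes that chose the members, Lhx8, a LIM homeodomain factor of oral and tooth mesenchyme, and Tbx4, a T-box factor of the hindlimb. Each is the 250 bases before the annotated start of the gene, 5′ to 3′ on the strand of the gene, from RefSeq on GRCm38.p6. Gsc lies at chr12:104473237-104473486 on the minus strand, Lhx8 at chr3:154330561-154330810 on the minus strand and Tbx4 at chr11:85896515-85896764 on the plus strand. Capitals mark the homeodomain core TAAT or its reverse complement ATTA.
Gsc: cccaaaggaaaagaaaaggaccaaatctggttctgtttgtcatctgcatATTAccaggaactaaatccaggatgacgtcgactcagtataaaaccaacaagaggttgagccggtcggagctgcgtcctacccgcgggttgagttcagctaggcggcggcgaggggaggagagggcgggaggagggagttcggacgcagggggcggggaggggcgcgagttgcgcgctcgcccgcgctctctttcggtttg
Lhx8: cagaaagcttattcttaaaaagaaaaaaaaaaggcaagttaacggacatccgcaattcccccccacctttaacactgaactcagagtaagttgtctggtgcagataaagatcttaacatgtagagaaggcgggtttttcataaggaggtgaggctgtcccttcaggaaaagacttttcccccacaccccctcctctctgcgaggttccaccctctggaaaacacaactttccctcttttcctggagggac
Tbx4: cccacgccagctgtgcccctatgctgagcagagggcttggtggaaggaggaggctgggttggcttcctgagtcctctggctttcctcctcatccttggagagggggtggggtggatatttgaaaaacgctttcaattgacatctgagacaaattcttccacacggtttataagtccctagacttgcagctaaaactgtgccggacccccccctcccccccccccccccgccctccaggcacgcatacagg
The core occurred 1 time before Gsc and 0 times before Lhx8 and Tbx4, which says only that these letters are not in those windows. On either strand, TAAT lay in the window of 41.5% of 118 matched genes at least 2-fold higher in the members, of 37.8% of 9096 matched genes among all those described and of 55.3% of all 27025 promoters of the table. TAATCC, a motif bound by Pitx factors, lay in 2.54%, 4.72% and 6.38% of the same sets, and TAATTA, bound by Dlx and Barx factors, in 4.24%, 1.98% and 4.90%. Both longer motifs contain the core. Promoters of Pitx1, Dlx5, Dlx6 and Osr1 were not analysed here.

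The score that chose the members is a description and not a result. It ran from 6.12 to 32.6 UMIs per 10000 in the members, with a median of 9.37, and the first spot left out had 6.08. Within 10% of the threshold lay 6 members and 9 other spots. Members held 8 to 84 UMIs of the 3 genes, with a median of 23. All 3 genes were found in 44 members, 2 genes in 26 and 1 gene in 8. Gsc reached 392 UMIs per 1000000 (CPM) in the members against 17.6 CPM in the other spots, Pitx1 450.1 against 20.3 and Barx1 360.0 against 17.6. The members held 49.4% of the section's Gsc UMIs, 49.3% of its Pitx1 UMIs and 47.3% of its Barx1 UMIs.

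Depth was somewhat lower in the members than in the other spots. The median member was also shallower in each region with members, described further on. The gap ran from 23488.5 against 24475 UMIs in the Pyy/Gcg region to 17263 against 25395.5 in the Aldh1a3/Sfn region. The median member held 23866 UMIs, in a range of 10708 to 46425, from a median of 5834 genes, and the median other spot held 27272 UMIs from 6187 genes. Globin transcripts made up 2.68% of the UMIs of members and 5.56% of those of other spots, and mitochondrial transcripts 0.721% and 1.45%. Spot barcodes, which mark positions on the array, were shared between sections, 434 by E11.5 and E12.5, 704 by E11.5 and E13.5 and 696 by E12.5 and E13.5.

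Of 11446 genes with at least 200 UMIs in the section, 146 (1.28%) were at least 2-fold higher in the members and 1187 (10.4%) at least 2-fold lower. The median log2 ratio over all of them was 0.09, so a centred ratio is slightly lower than each value given here. Centred on it, 93 genes were at least 2-fold higher, and with the top 3% of spots as members 234 were.

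Dlx5 led the genes named by the rule, which asked for at least 50 UMIs in the members. It had 108 UMIs in 28 of 78 members, or 57.9 CPM, against 220 UMIs in 109 of 1483 other spots, or 5.18 CPM, a ratio of 11.2 (8.81 to 14.2). Lhx8 followed with 86 UMIs in 26 members, 46.1 CPM against 4.49 CPM and a ratio of 10.3 (7.86 to 13.3). Neither gene was detected in most members, with up to 11 UMIs of Dlx5 and up to 12 of Lhx8 in a spot. Of the 108 Dlx5 UMIs, 101 lay in the 28 members of a single region described further on. The remaining members had 5.82 CPM of Dlx5, close to the other spots.

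Alkal2, a ligand of the ALK receptor, had a ratio of 7.16 (5.17 to 9.77) on 54 member UMIs. Osr1, a zinc finger factor of several mesenchymes, had 113 CPM against 31.7 CPM, a ratio of 3.58 (3.08 to 4.14). These genes were found in 18 and 44 of the 78 members.

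Mesenchymal genes were spread more widely over the members. They were common in the other spots as well. Prrx1, a homeodomain factor of limb and facial mesenchyme, had UMIs in 65 of 78 members and 876 of 1483 other spots. Its level was 269 CPM against 84.3 CPM, a ratio of 3.19 (2.90 to 3.51). Twist2, a basic helix-loop-helix factor of mesenchyme, had UMIs in 61 members and 746 other spots, with a CPM ratio of 2.97 (2.58 to 3.40). Frzb, a secreted Wnt antagonist, had 169.5 CPM against 43.4 CPM, a ratio of 3.91 (3.46 to 4.40), with UMIs in 51 members and 739 other spots.
Other named genes had ratios between 2.94 and 3.46. They were Mab21l1, Tbx3, a T-box factor, Frem1, a basement membrane protein, Eya4, a phosphatase and transcription cofactor, Ntf3, a neurotrophin, and Tmem26. Their intervals overlap widely, so the order among them carries no weight. Tbx3 had 1.93 when the score left out Pitx1, and Tmem26 1.95 when it left out Barx1.

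**Figure D1:**
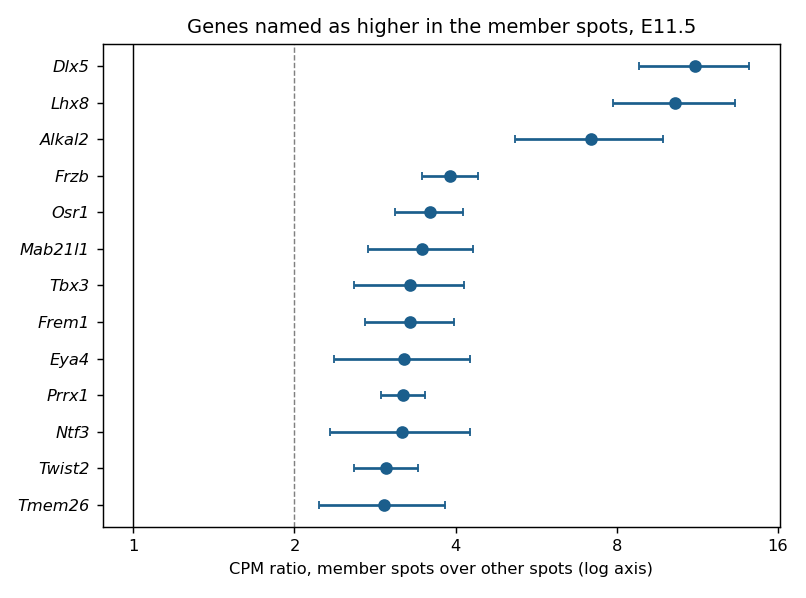
Ratio of CPM in the 78 members over the other 1483 spots of the E11.5 section (log axis) for 13 genes named as higher, with bars for exact 95% counting intervals. Dlx5 (11.2) and Lhx8 (10.3) lie apart from most of the others, 10 of which sit between 2.94 and 3.91.

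The genes named as lower included many of the nervous system. Among the 15 named as lower, each had 0 UMIs in all 78 members, so that their folds are bounds taken against 3 UMIs in the members as a whole. Vstm2l, with 825 UMIs in other spots, was at least 12.1-fold lower, and the exact 95% interval of its ratio ran up to 0.102. Celf5, an RNA-binding protein of neurons, was at least 9.99-fold lower, Rfx4, a factor of the neural tube, at least 9.56-fold, and Slc18a3, the vesicular transporter of acetylcholine, at least 9.09-fold. Gad2, which makes the transmitter GABA, was at least 6.11-fold lower and Barhl2, a factor of dorsal spinal neurons, at least 5.61-fold. Hoxd9 and Hoxc8, Hox genes of the trunk, were at least 8.47-fold and 8.33-fold lower, with 579 and 570 UMIs in the other spots. Hoxd9 is also a gene of the limb list used further on.

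Counts in gene lists stand beside those of all genes described, of which 1.28% were at least 2-fold higher and 10.4% at least 2-fold lower. The Dlx list had the highest median log2 ratio of the 27 gene lists, 2.97. Its 6 genes summed to 131 CPM (115 to 149) in the members and 14.3 CPM (13.2 to 15.4) in the other spots. Dlx5 and Dlx2 had enough UMIs to be described, and both were over 2-fold higher. The ratio of Dlx2 was 5.42 (3.87 to 7.45). Dlx6 had 44 member UMIs and a ratio of 16.7 (11.1 to 25.1), and Dlx1 had 41 and a ratio of 9.44 (6.39 to 13.7). Both fall under the minimum of 200 UMIs. Dlx3 had 4 UMIs in the members, and Dlx4 had 0 there and 5 in the other spots.

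Endothelin signalling, which acts upstream of Dlx5 and Dlx6, showed no common direction as a list. Hand2, a basic helix-loop-helix factor of the lower arch, had 58.5 CPM against 21.0 CPM, a ratio of 2.78 (2.26 to 3.39). Spots high in heart genes held Hand2 more often than the members did, as given further on. Ednra, the endothelin receptor of arch mesenchyme, had a ratio of 1.93 (1.49 to 2.46), under the 2-fold limit. Edn1, its ligand, had 1 UMI in the members and 107 in the other spots, a ratio of 0.21 (0.0053 to 1.21). Of 5 genes described, 1 was at least 2-fold higher and 1, Hand1, at least 2-fold lower, with a median log2 ratio of -0.09 that changed sign under 4 alternatives.

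Of 8 described genes among the proximal arch factors, 6 were at least 2-fold higher, among them Lhx8, Eya4, Six2 and Eya1, and 1 was lower. Six2, a homeodomain factor, had a ratio of 2.13, and Eya1, a cofactor of such proteins, 2.09. Lhx6, a close relative of Lhx8, had a ratio of 7.83 (5.45 to 11.1) on 45 member UMIs and was under the minimum. Pou3f3, a factor of the upper arch, was the lower one, with a ratio of 0.15 (0.060 to 0.31). Nkx3-2, a factor of the jaw joint, had 0 UMIs in the members and 2 in the other spots, too few to describe. The list summed to 277 CPM in the members and 117 CPM in the other spots. Among the other spots, those of the Alx1/Six2 and Aldh1a3/Sfn regions, described further on, had 357 and 320 CPM. A high level was therefore not particular to the members, although other spots of the remaining regions with members had less.

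In the list for tooth and palate mesenchyme, 3 of 7 described genes were at least 2-fold higher, among them Lhx8 and Osr1, and 1, Msx2, at least 2-fold lower, with a ratio of 0.39 (0.19 to 0.70). Msx1, a homeodomain factor of tooth mesenchyme, had 79.9 CPM against 55.3 CPM. Tbx22, a palate gene, had only 13 member UMIs and a ratio of 8.47 (4.11 to 16.4), and Osr2 19 UMIs and a ratio of 3.83 (2.23 to 6.27). The list's median log2 ratio was 0.96, beside 0.09 for all genes described. It summed to 358 CPM in the members and 147 CPM in the other spots. Here too the other spots of the Aldh1a3/Sfn and Alx1/Six2 regions had more than the members, 904 and 382 CPM. Other spots of the remaining regions with members had less.

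Among forkhead factors, Foxf1 and Foxf2 were 2 of 8 described genes past the limit, with ratios of 2.05 and 2.10, while Foxc1 and Foxd1 had 0.74 and 0.57. Of 11 general mesenchyme genes, 2 were at least 2-fold higher and 1 lower. Prrx1 and Twist2 were past 2-fold, Prrx2 (1.86), Twist1 (1.98) and Pdgfra (1.71) were not, and the collagen gene Col1a1 was lower at 0.37 (0.31 to 0.44), next to 1.05 for Col1a2.

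Hox genes of the second arch and hindbrain were low in the members. All 4 described (Hoxa2, Hoxb2, Hoxa3 and Hoxb3) were at least 2-fold lower, with a summed level of 29.0 CPM against 126 CPM and a median log2 ratio of -2.09. As background, mesenchyme of the first arch lacks Hox expression. A low level was not particular to the members. Other spots of the Alx1/Six2 and Aldh1a3/Sfn regions, described further on, had 5.03 and 16.1 CPM, while those of the remaining regions with members had more than the members. In the members as a whole 54 UMIs of these genes remained, in 29 of 78 spots, and 30 of those UMIs lay in the 10 members of a single region described further on.

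Frontonasal genes, with 6 described, had 0 past 2-fold in the higher direction and 1 in the lower, and a median log2 ratio of 0.12. Of all genes described, 1.28% were higher and 10.4% lower.

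Of 10 FGF genes described, 3 were at least 2-fold higher and 1 lower, beside 1.28% and 10.4% of all genes described. Fgf10, a ligand from mesenchyme, had 24.7 CPM against 3.95 CPM, a ratio of 6.24 (4.40 to 8.70). Etv4 and Etv5, transcription factors that respond to FGF, had ratios of 2.73 and 2.57, and the receptor Fgfr3 had 0.30.

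Among 10 hedgehog genes described, 2 were at least 2-fold higher, among them the effector Gli1 at 2.26 (1.91 to 2.65). The ligand gene Shh had 11 member UMIs and a ratio of 0.79. Wnt genes gave 2 of 12, the antagonist Sfrp2 at 2.19 and the agonist Rspo2 at 2.53. Of the 246 Sfrp2 UMIs of the members, 173 lay in 16 members of a single region described further on. The remaining members had 48.7 CPM of Sfrp2, under the 60.4 CPM of the other spots. BMP genes gave 0 of 13 in either direction, beside 1.28% higher and 10.4% lower of all genes described.

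Retinoic acid genes moved both ways, with 1 of 8 higher and 3 lower. Aldh1a2, which makes retinoic acid, had a ratio of 2.03, and the breakdown enzyme Cyp26a1, at 3 member UMIs, had 0.29 (0.059 to 0.85). Most Aldh1a2 UMIs of the members lay in 28 members of a single region described further on. The remaining members had 14.1 CPM of Aldh1a2, under the 41.6 CPM of the other spots. Cell cycle genes had 0 of 14 past 2-fold, and a ratio above 1 in 14 of 14, where 56.9% of all genes described were above 1. Their summed level was 2590 CPM against 1739 CPM, and Ccna2, a cyclin, had a ratio of 1.02 (0.873 to 1.18).

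Counts of marker genes of other cell types stand beside 10.4% lower and 1.28% higher of all genes described. Heart genes were lower in 7 of 7, with 106 CPM against 1748 CPM, neuronal genes in 7 of 8, neural progenitor genes in 4 of 4, arch muscle genes in 4 of 7 and red cell genes in 6 of 8. Epithelial genes summed to 244 CPM against 149 CPM, with 1 of 9 past 2-fold, and to 59.0 CPM in the 28 members of the Tnnc2/Myh3 region described next. Macrophage genes had 0 of 5 past 2-fold, cartilage genes 5 of 13 lower, neural crest and glia genes 3 of 6 lower, endothelial genes 1 of 7 lower, bone genes 1 of 1 lower, and gut genes 1 higher and 1 lower of 7. The part of these differences in the ratios given above was not tested.

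**Figure D2:**
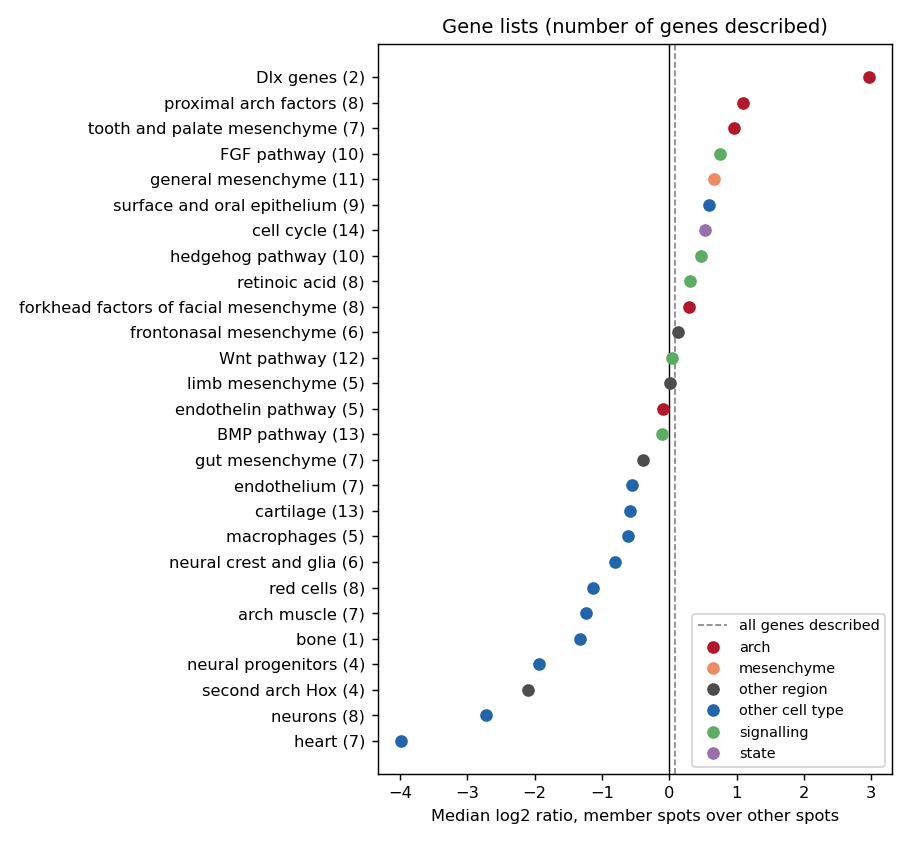
Median log2 ratio (members over other spots, E11.5) of the described genes in each of the 27 lists, with the number of described genes in brackets, coloured by the kind of list, and a dashed line at 0.09 for all genes described. The Dlx list lies farthest to the right (2.97, 2 genes) and the heart list farthest to the left (-3.99).

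The members were not 1 kind of spot. When the section was clustered without Gsc, Pitx1 and Barx1, its spots fell into 19 regions, and members lay in 6 of them, while 13 regions with 1063 spots held 0 members. Regions are called by their leading genes. The Tnnc2/Myh3 region held 28 members of its 75 spots, the Sostdc1/Tbx1 region 16 of 65, the Hoxa10/Hmga2 region 13 of 97, the Pyy/Gcg region 10 of 107, the Aldh1a3/Sfn region 7 of 61 and the Alx1/Six2 region 4 of 93. Genes that formed the regions differ between them by construction, so the values that follow are descriptions. At a finer clustering (resolution 1.5), the region with most Dlx5 UMIs held 16 members in place of 28, while the region with most Tbx4 UMIs held 13 in each run.

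**Figure D3:**
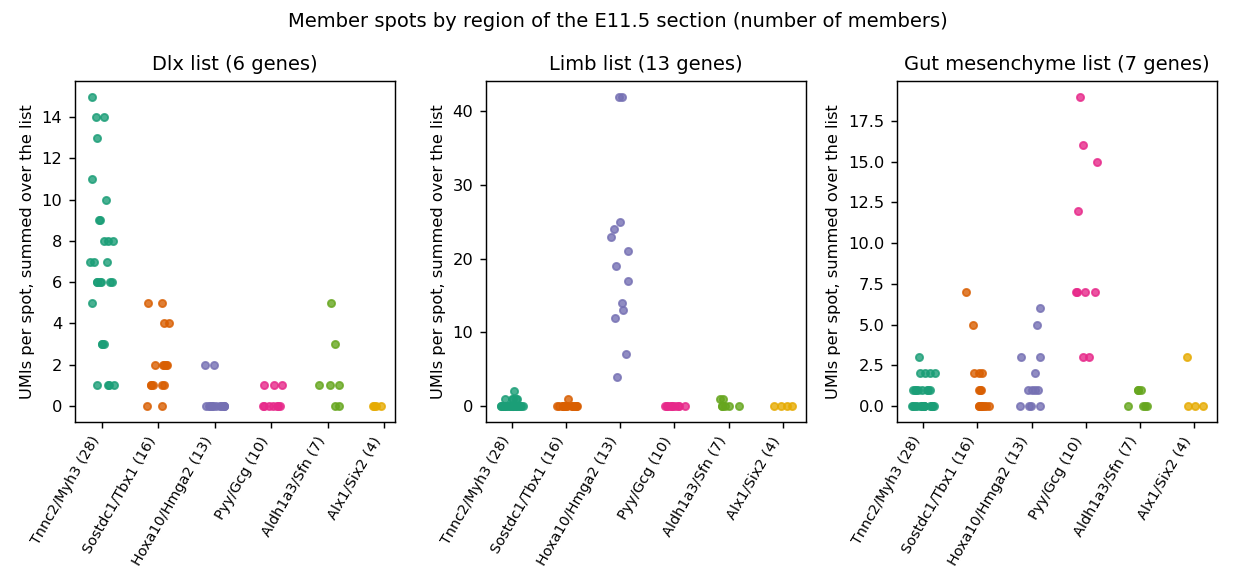
UMIs summed over the Dlx list, the limb list and the gut mesenchyme list in each of the 78 members (1 point per spot), grouped by region, with the number of members in brackets. Dlx UMIs are highest in the Tnnc2/Myh3 members (1 to 15 per spot), limb UMIs in the Hoxa10/Hmga2 members (4 to 42) and gut UMIs in the Pyy/Gcg members (3 to 19).

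The 28 members of the Tnnc2/Myh3 region held most of the Dlx5 and Dlx6. All 28 had Dlx list UMIs, from 1 to 15 per spot with a median of 6.5, and a sum of 294 CPM (254 to 338). The 47 other spots of that region had 50.2 CPM, with UMIs in 22 of them. Dlx5 had 101 of its 108 member UMIs there, in 22 of 28 spots, or 152.9 CPM. Dlx6 had 40 of 44. Against the other 50 members, Dlx5 was 26.3-fold higher (12.3 to 67.1). Those 50 members had 7 Dlx5 UMIs, or 5.82 CPM, close to the 5.18 CPM of the 1483 other spots of the section.

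Hand2 had 74 UMIs in 24 of these 28 spots, 3.85-fold (2.54 to 5.94) the level in the other members. Aldh1a2 had 140 UMIs in 21 spots, a ratio of 15.01 (9.04 to 26.5) over the other members. Dlk1, a secreted and membrane-bound relative of Notch ligands, had a ratio of 3.88 (3.44 to 4.38), and Mab21l2 4.61 (3.03 to 7.18). Lhx8 (58 UMIs) and Lhx6 (30) were present as well, in 16 and 15 spots.

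Although the region is led by skeletal muscle genes, its members held few of them. The arch muscle list summed to 92.4 CPM (70.6 to 119) in the 28 members and 1360 CPM (1298 to 1425) in the 47 other spots, with a highest value of 12 UMIs in a member and 215 in another spot. Prrx1 was found in 28 of 28 members, at 434.5 CPM against 202 CPM in the region's other spots. Hoxa10, Hoxd12 and Hoxd13 had 0 UMIs in these members, and a count of 0 allows up to 3 UMIs in the set.

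The 16 members of the Sostdc1/Tbx1 region differed in which Dlx genes they held. Dlx1 and Dlx2 had 15 UMIs each, in 9 and 11 of 16 spots, or 41.0 CPM each, close to the Tnnc2/Myh3 members, where Dlx1 had 31.8 CPM and Dlx2 43.9 CPM. Dlx5, by contrast, had 2 UMIs or 5.46 CPM (0.66 to 19.7), and Dlx6 had 1. Hand2 had 0 UMIs in all 16, while Lhx8 had 26 UMIs (71.0 CPM).

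Other genes led these 16 members over the remaining 62. Sim2, a basic helix-loop-helix PAS factor, was 21.4-fold higher (10.3 to 49.6), with 47 of 56 member UMIs. Foxf2 had 86 UMIs in 15 of 16 spots and a ratio of 10.7 (7.06 to 16.4). Sfrp2 had UMIs in 16 of 16, up to 28 in a spot, with 472 CPM and a ratio of 9.69 (7.33 to 12.9). Ptch1, the hedgehog receptor and a target of the pathway, had 180 CPM in this set and 27.3 CPM in the Tnnc2/Myh3 members.
Globin transcripts made up 3.20% of UMIs in these members and 9.42% in the 49 other spots of the region.

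The 13 members of the Hoxa10/Hmga2 region carried hindlimb genes and neither of the jaw genes Lhx6 and Lhx8, which had 0 UMIs there. The limb list had UMIs in 13 of 13, from 4 to 42 per spot with a median of 19, and summed to 653 CPM (577 to 737). The other 5 sets of members reached at most 16.6 CPM, and the 84 other spots of this region 344 CPM. Dlx list UMIs were found in 2 of the 13 spots, 4 in all.

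Tbx4 had 39 UMIs in 11 of these 13 spots, 96.9 CPM (68.9 to 132), and in the region's other spots 41 UMIs in 17 of 84, 14.7 CPM. Tbx5, its relative of the forelimb, had 0 UMIs in the members and 0 in the other spots of the region, while 61 UMIs lay elsewhere in the section. Hoxa10 had 58 UMIs in 12 of 13, at least 70.2-fold above the other members, which had 0. Shox2, a factor of the upper limb skeleton, had 50 UMIs in 8 spots and 3 in the other members, a ratio of 60.5 (19.6 to 303).

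Hox genes from the end of the clusters that is active in the outer limb were found in this set. Hoxd13 had 23 UMIs in 8 of 13 spots and Hoxd12 24 UMIs in 7, while over all 1483 other spots they had 21 and 22. Hoxa11 had 16 UMIs in 9 spots. Hoxd9, in contrast, had 0 UMIs in the 13 members and 173 UMIs in 55 of the 84 other spots of the same region. Pitx1 made up most of the score in this set, with 229 UMIs, next to 114 of Gsc and 5 of Barx1.
Meis1, a cofactor of Hox proteins, had 126 UMIs and was 4.24-fold higher (3.25 to 5.53) than in the other members. Sst, which encodes somatostatin, had 54 UMIs in 9 spots and a ratio of 10.3 (6.02 to 18.4).

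The 10 members of the Pyy/Gcg region were chosen almost only through Barx1, which had 187 UMIs in them, against 8 of Pitx1 and 2 of Gsc. The gut mesenchyme list had UMIs in 10 of 10, from 3 to 19 per spot, and summed to 403 CPM (327 to 493). The other sets of members had at most 57.3 CPM, while the 97 other spots of the region had 331 CPM (309 to 354). Foxf1, a forkhead factor of gut mesenchyme, had 33 UMIs in 10 of 10. Gata4 had 19 UMIs in 8 spots, and Nkx2-5, a factor of heart and of stomach outlet mesenchyme, 19 UMIs in 4 spots.

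In this set Prrx1 had 1 UMI, Lhx8 and Dlx2 had 0, and the Dlx list had 3 in all. The tooth and palate list had 54 UMIs in 9 of 10 spots, or 227 CPM, but 51 of these UMIs were of Osr1 alone. The forkhead list had 78 UMIs in 10, or 328 CPM. Its leading genes over the other members are known from liver and gut lining, with Alb at 35.3-fold (14.5 to 103), Afp at 25.4-fold (15.5 to 43.3), Rbp4, Apoa2 and Plac8. Alb, Afp and Apoa2 had UMIs in 10 of 10 spots, at 31, 78 and 40 UMIs. The 51 Osr1 UMIs lay in 8 spots, and Hox genes of the second arch list had 30 UMIs in 9.

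The 7 members of the Aldh1a3/Sfn region were rich in epithelial genes. Their epithelial list summed to 1062 CPM (886 to 1262), with 7 to 35 UMIs per spot, and Epcam, a surface protein of epithelium, had 34 UMIs in 7 of 7. Sfn was 21.7-fold higher (9.89 to 49.4) than in the other members. Aldh1a3 had 18 UMIs in 3 spots and a ratio of 65.1 (21.4 to 264). Dlx list UMIs were found in 5 of 7, at 91.2 CPM, and Alx1 had 22 UMIs in 4. The 54 other spots of the region had less of the epithelial list, 788 CPM (742 to 837). Their Dlx list level was near that of the members, 105 CPM (88.5 to 124). They had more of the tooth and palate list, 904 CPM against 440 CPM in the 7 members. The retinoic acid list was also higher in them, at 4066 CPM against 954 CPM. Dlx list UMIs were found in 30 of those 54 spots.

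The 4 members of the Alx1/Six2 region had Alx1, a homeodomain factor of the frontonasal process, in 4 of 4, with 68 UMIs or 892 CPM and a ratio of 40.9 (27.2 to 62.2) over the other members. Their frontonasal list ran from 19 to 24 UMIs per spot. Dlx list and limb list UMIs were 0 in all 4. Gsc made up 51 of their scoring UMIs, Barx1 9 and Pitx1 2. These 76258 UMIs in 4 spots are few, and a count of 0 there allows up to 3 UMIs, or 39.3 CPM for Dlx5.

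**Figure D4:**
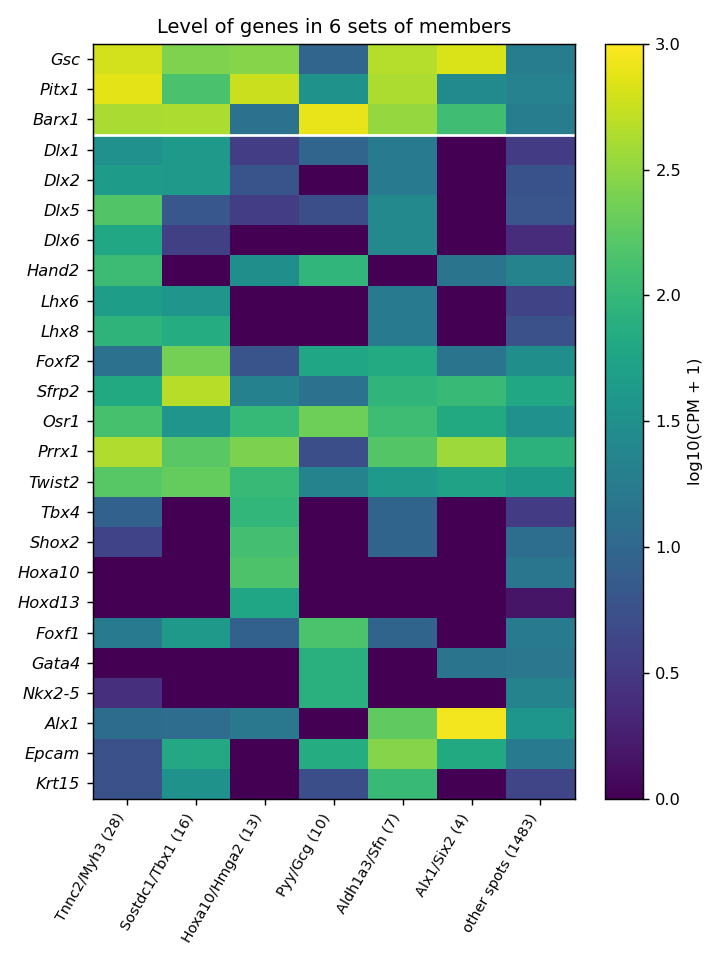
Level, as log10(CPM + 1), of 25 genes in the members of each of the 6 regions (columns, with the number of spots) and in the other 1483 spots, with the 3 scoring genes above the white line. Dlx5 and Hand2 mark the Tnnc2/Myh3 members, Foxf2 and Sfrp2 the Sostdc1/Tbx1 members, and Tbx4, Shox2 and Hoxd13 the Hoxa10/Hmga2 members.

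Counted spot by spot, Dlx UMIs without limb UMIs were found in 42 members, limb UMIs without Dlx UMIs in 12, both in 10 and neither in 14. Among the other 1483 spots these numbers were 162, 516, 135 and 670.

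Splitting the members by the scoring gene with most UMIs gave 26 led by Gsc, 28 by Pitx1, 22 by Barx1 and 2 ties. The Gsc-led members lay in the Tnnc2/Myh3 region in 11 cases, the Hoxa10/Hmga2 region in 5 and the Alx1/Six2 region in 4. Pitx1-led members lay there in 15, 8 and 0 cases. Of the Barx1-led members, 10 lay in the Pyy/Gcg region and 9 in the Sostdc1/Tbx1 region.

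Genes named by the rule had at least 50 UMIs in the members of the kind. Among them, Alx1 was 14.0-fold higher (7.81 to 27.3) in Gsc-led members than in the other members, with 94 UMIs in 10 of 26 spots. The 4 members of the Alx1/Six2 region, all Gsc-led, held 68 of these UMIs. Msx1 (2.30), Aldh1a2 (2.27), Ets2 (2.24) and Dlk1 (2.11) had the highest ratios in the Pitx1-led members. Afp (12.3), Ifitm1 (4.67), Prnp (3.63), Foxf2 (3.53), Krt18 (3.50) and Ptch1 (2.71) had them in the Barx1-led members, which mix both of the regions just named.

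At equal depth, the shares of spots with a UMI still differed. With each spot thinned to 5000 UMIs, Dlx5 was found in 24.4% of 78 members (15.3 to 35.4), 2.24% of 1473 other spots and 0% of 77 spots high in heart genes, where a count of 0 allows up to 3.90%. Unthinned shares were 35.9%, 7.35% and 2.56%. Thinned shares of Lhx8 were 15.4%, 2.44% and 0%, and unthinned ones 33.3%, 6.88% and 2.56%. Tbx4 was found in 8.97% of thinned members (3.68 to 17.6), 1.36% of other spots and 1.30% of heart-gene spots, and before thinning in 20.5%, 4.86% and 7.69%. The heart-gene spots, which should lack these genes, were deeper, with a median of 38189 UMIs, and thinning left out 10 other spots and 1 heart-gene spot as too shallow. Hand2 went the other way. It was found in 37.7% of thinned heart-gene spots, 19.2% of members and 7.81% of other spots, and before thinning in 87.2%, 50% and 23.3%. Osr1 was found in 25.6% of thinned members, 20.8% of heart-gene spots and 13.1% of other spots. Before thinning its shares were 56.4%, 64.1% and 38.2%.

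The same rule picked other spots in the later sections. At E12.5 it took 50 of 1014 spots with 613 Pitx1 UMIs, 10 of Gsc and 6 of Barx1, and 37 of the 50 had only 1 of the genes. At E13.5 it took 68 of 1360 spots with 160 Pitx1, 48 Gsc and 33 Barx1 UMIs, and the last spot taken had 1.497 UMIs per 10000. Over all spots, Gsc had 33.4 CPM at E11.5, 2.31 CPM at E12.5 and 3.65 CPM at E13.5, and Barx1 had 32.0, 0.71 and 4.10 CPM. Pitx1 had 38.4, 39.0 and 13.2 CPM. Stage and the part of the embryo each section covers cannot be told apart.

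**Figure D5:**
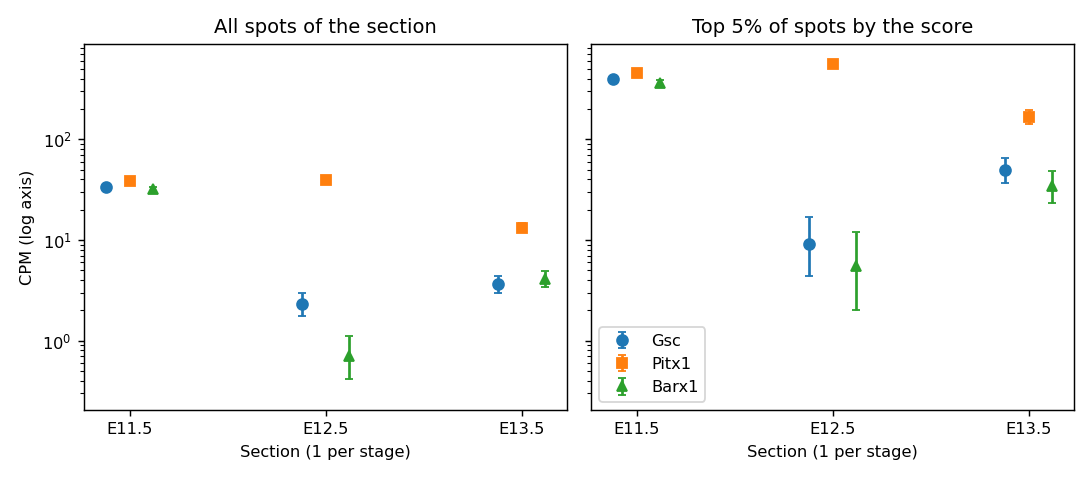
CPM (log axis) of Gsc, Pitx1 and Barx1 over all spots used (left) and in the top 5% of spots by the score (right) of each section, with exact 95% counting intervals. Barx1 over all spots is lowest at E12.5 (0.71 CPM), while Pitx1 is nearly the same at E11.5 and E12.5 (38.4 and 39.0 CPM).

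Genes outside the score were compared in the same way. At E12.5, 147 of 10603 genes (1.39%) were at least 2-fold higher in the top spots and 890 (8.39%) lower, led by Shox2 at 10.7 (8.73 to 12.99), Emx2 at 8.78, Dmrt2 at 5.41 and Tbx3 at 5.28. Osr1 at 4.65 (3.97 to 5.43) and the tendon factor Scx at 4.26 were among them. At E13.5, 77 of 10882 genes (0.708%) were higher and 533 (4.9%) lower, led by the keratin gene Krt15 at 13.5 (10.8 to 16.8), Penk at 4.46 and Cxcl14 at 4.02. Of the 15 genes that met the naming rule as higher at E11.5, 10 could be described at E12.5 and 5 were at least 2-fold higher, and at E13.5 these numbers were 9 and 0.

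Dlx5, with a ratio of 11.2 at E11.5, had 2.17 (0.96 to 4.302) at E12.5 on 9 UMIs and 2.001 (0.98 to 3.68) at E13.5 on 11. Tbx4 had ratios of 9.86 (6.79 to 14.1), 11.4 (5.97 to 21.1) and 2.93 (1.94 to 4.28) in the order of the stages. Lhx8 had 1 UMI in the top spots at E12.5 and 2 at E13.5, too few to compare. Hoxa10 was 2.24-fold, 2.75-fold and 2.41-fold higher in the top spots of the 3 sections.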

How the data were processed

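The authors deposited raw counts of UMIs for every gene in every spot, and the file headers name Space Ranger 1.2.0 as their source. The submitters' processing notes also list STAR and mm10. Of STAR's version, the annotation and the choice of spots, nothing is given in the sources used here. The matrices hold 32285 genes, and the reference table had 32158 of their IDs. Spot positions and images were not used, and no doublet caller applies to spots.

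Spots with at least 1000 UMIs were kept, which left out 2 of 1563 spots at E11.5. UMIs were summed over members and other spots and scaled to 1000000 (CPM). Ratios have exact conditional binomial intervals, levels exact Poisson intervals and shares Clopper-Pearson intervals. Log2 ratios used a pseudocount of 0.5 UMI. A fold against 0 UMIs was taken against 3 UMIs over the group. No test was run, since each stage has 1 section, and 2-fold is a size and not a test.

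Named genes were those of highest or lowest ratio, up to 15 per direction, with 200 UMIs or more in the section and, if higher, 50 or more in the members. For the other genes named, the rule took the 5 highest at 100 CPM or more per region and up to 8 per leading scoring gene with at least 50 UMIs. Members of the lists could be named whatever their value. Some genes that met these rules, and the planned comparison with another group of facial spots, are not reported here. Globin, mitochondrial, ribosomal, X-linked and Y-linked, unnamed and repeated symbols were left out of naming. Hoxa11os, antisense to Hoxa11, led the Hoxa10/Hmga2 members by 156-fold (26.6 to 6309), with 1 UMI in the other members. Whether strand was used in counting is not stated.

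For the regions, the 3 scoring genes were removed, 2000 variable genes reduced to 30 principal components, and a graph of 15 neighbours clustered by Leiden (resolution 1). Members and lists were chosen with earlier results of these data known. On simulated data 98 of 100 genes made 3-fold higher and 93 of 100 made 3-fold lower in the members were recovered as past 2-fold, with 65 of 11263 unchanged genes. Clustering used scanpy 1.11.5 with igraph 0.11.9, intervals scipy 1.17.1, tables pandas 2.3.3 with numpy 2.4.6 and figures matplotlib 3.10.9, under Python 3.11.15.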

Additional observations from a re-analysis of the deposited data

How the results depend on the processing

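No paired analysis was possible because each stage holds 1 section, and sections share no animal. The 146 genes higher in the members became 234 with the top 3% of spots, 93 when ratios were centred on the median, 70 of 6046 genes after thinning to 5000 UMIs, 332 of 13966 genes with a minimum of 50 UMIs and 44 of 6479 with a minimum of 1000 UMIs. The 1187 lower genes became 395, 2064 and 346 under the last 3. The median log2 ratio of the endothelin list, at -0.09, changed sign to 0.0033 with a score without Pitx1, 0.085 against other spots without scoring UMIs, 0.018 as a mean of spot shares and 0.047 in members without limb list UMIs; the cause was not tested. The region with most Dlx5 UMIs held 28 members, and 16 at clustering resolution 1.5. Tbx4's region held 13 in each clustering run.

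Of the ratios of the 15 genes named as higher, 50 moved beyond their interval under the alternatives and 175 did not, each staying above 1. The 15 named as lower have 0 UMIs in the members and could hardly change; Hoxd9 moved under 2 alternatives. Among the higher genes, Dlx5 ranged from 8.90 (score without Pitx1) to 19.0 (top 3% of spots), and Lhx8 from 6.44 (thinned) to 24.8 (other spots without scoring UMIs). Against those same spots Alkal2 reached 20.9, Eya4 5.95 and Prrx1 5.00, and Ntf3 reached 8.04 after thinning. Spots without scoring UMIs are picked by the genes that chose the members. The larger ratios against them are therefore no independent check. Tbx3 was 1.93 with a score without Pitx1, and Tmem26 1.95 without Barx1, both under 2-fold. Members outside the Hoxa10/Hmga2 and Pyy/Gcg regions (55 spots) gave 209 higher genes and those without limb list UMIs (56 spots) 189; both alternatives, and the other clustering runs, were chosen after seeing the data. Scores without Gsc, Pitx1 or Barx1 shared 60, 64 and 60 of the 78 members. With 78 spots, genes under about 50 UMIs in the members have wide intervals, and 1 section gives no spread between embryos.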

Other observations

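Genes on the X chromosome were left out of naming, and 8 of them were at least 2-fold higher in the 78 members on 50 or more UMIs. Over all genes described, without that minimum in the members, 146 of 11446 (1.28%) were higher. The share among X-linked genes is not given here, so the count is no result about the chromosome. Amot, which encodes a regulator of Yap, was widespread in both groups, with UMIs in 73 of 78 members and 1102 of 1483 other spots. It had 557 UMIs in the members, 299 CPM against 81.0 CPM in the other spots and a ratio of 3.69 (3.37 to 4.04). Capn6, a calpain-like protein of embryonic mesenchyme and muscle, had UMIs in 70 members and a ratio of 3.12 (2.75 to 3.52). Rtl3, derived from a retrotransposon, had a ratio of 4.34 (3.20 to 5.80) on 56 UMIs in 30 members. Fndc3c1 (2.95), Dusp9 (2.74), Cited1 (2.36), Pwwp3b (2.13) and Shroom4 (2.04) followed.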
